A study of Mus musculus with 8 samples.

Results

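Genes of DNA methylation and demethylation were examined in mouse embryonic stem (ES) cell clones depleted of Taf5, a subunit of the general transcription factor TFIID, which binds core promoters. The genes were Dnmt1, Dnmt3a, Dnmt3b, Dnmt3l, Uhrf1, Tet1, Tet2, Tet3, Tdg and Mbd3, taken by gene symbol from the array's platform annotation. Of these 10 genes, 9 had at least 1 probe. Tdg is not analysed here. The symbols held 15 of the 41174 mouse probes on the array, and 2 further probes annotated as B430006D22Rik, a RefSeq synonym of Tet3, brought the number to 17. Every one of the 17 passed the filter on dim probes.

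The Taf5-kd group held 2 clonal lines and the control-kd group 2 clonal lines, all derived from IB10 cells, a subclone of the E14 mouse ES line. Both groups carried a pLKO-puro lentivirus expressing a short hairpin RNA, were selected in puromycin, were picked as single resistant colonies and were cultured with LIF on gelatin in serum medium. Each line was grown in duplicate and hybridised on 2 dual-colour arrays, with its RNA in Cy3 on array 1 and in Cy5 on array 2, giving 4 arrays per group. The other channel always held the same pool of parental ES cell RNA. Every level below is therefore a log2 ratio to that pool, with the dye effect removed, and the independent unit is the clone. With 2 clones per group, the number of lines limits the precision of each comparison. The cells were measured in bulk, so a smaller share of cells expressing a gene and less RNA per cell cannot be told apart.

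DNA methylation in mammals is laid down on CpG sites by DNMT3A and DNMT3B, with the catalytically inactive DNMT3L as a cofactor that is abundant in ES cells and germ cells. It is copied after replication by DNMT1, which UHRF1 recruits to hemimethylated DNA. TET1, TET2 and TET3 oxidise 5-methylcytosine, and TDG removes the later oxidation products for base excision repair. MBD3 is related to the methyl-CpG binding proteins and is a core subunit of the NuRD remodelling and deacetylase complex. Mouse ES cells in serum and LIF are known to express Tet1 and Tet2 and to keep high global methylation.

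In the Taf5-kd lines, 4 of the 9 measured genes had less RNA than in the control-kd lines and none had more. They were the maintenance pair Dnmt1 and Uhrf1, the cofactor Dnmt3l and the dioxygenase gene Tet2. Relative to control-kd, the falls were 3.11-fold for Tet2 and 3.09-fold for Dnmt3l, against 1.50-fold for Uhrf1 and 1.40-fold for Dnmt1. Against the parental pool, Dnmt1 stood at 0.01 in Taf5-kd and 0.50 in control-kd, and Uhrf1 at -0.06 and 0.52. Dnmt3l stood at -0.93 in Taf5-kd and 0.70 in control-kd, and Tet2 at -0.74 and 0.90 (log2). The catalytic de novo enzymes Dnmt3a and Dnmt3b, together with Tet1, Tet3 and Mbd3, did not pass the test. Over all 25150 features, 7.75% passed, 3.25% in the same direction and 4.5% in the other, at a Benjamini-Hochberg adjusted p under 0.05 in limma. The median log2 difference was -0.15 over the 9 genes and -0.0063 over all features. All 4 falls kept their direction but did not pass when arrays were centred on their median in place of loess (adjusted p 0.0609 to 0.409) or when any 1 of the 4 lines was left out (adjusted p 0.0504 to 0.144).

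The promoters of the 4 genes that fell are shown because they carry very different numbers of CpG, the dinucleotide that these enzymes act on. The sequences are RefSeq windows of the 250 bases before a transcription start in build GRCm38.p6, written 5′ to 3′ on the strand of the gene, with each CG in capitals. Where RefSeq gave several starts for a gene, the window with the most CG was chosen.
Tet2: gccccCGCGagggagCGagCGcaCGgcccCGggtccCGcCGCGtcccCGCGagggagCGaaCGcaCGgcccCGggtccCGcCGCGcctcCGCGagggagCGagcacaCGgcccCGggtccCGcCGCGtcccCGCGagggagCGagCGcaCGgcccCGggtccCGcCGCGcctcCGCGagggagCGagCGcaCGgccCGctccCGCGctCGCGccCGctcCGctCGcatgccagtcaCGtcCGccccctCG
Uhrf1: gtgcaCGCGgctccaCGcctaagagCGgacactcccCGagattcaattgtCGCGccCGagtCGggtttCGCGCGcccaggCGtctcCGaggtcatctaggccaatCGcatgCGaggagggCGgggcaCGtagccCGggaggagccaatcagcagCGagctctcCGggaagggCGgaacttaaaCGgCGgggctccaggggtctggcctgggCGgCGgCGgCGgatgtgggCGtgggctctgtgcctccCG
Dnmt1: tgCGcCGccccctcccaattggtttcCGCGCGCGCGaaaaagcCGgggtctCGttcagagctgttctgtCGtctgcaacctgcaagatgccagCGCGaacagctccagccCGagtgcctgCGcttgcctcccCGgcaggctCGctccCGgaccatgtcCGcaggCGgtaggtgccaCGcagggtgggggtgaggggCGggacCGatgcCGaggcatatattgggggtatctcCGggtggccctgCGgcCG
Dnmt3l: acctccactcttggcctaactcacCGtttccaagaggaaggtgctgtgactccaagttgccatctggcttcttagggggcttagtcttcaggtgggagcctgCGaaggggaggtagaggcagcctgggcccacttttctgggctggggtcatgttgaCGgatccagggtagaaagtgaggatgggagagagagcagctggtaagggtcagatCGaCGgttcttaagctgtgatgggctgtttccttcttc

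The Tet2 window (chr3:133544391-133544640, minus strand) holds 51 CG dinucleotides, and 0.067% of all 32851 windows of this length hold at least as many. The Uhrf1 window (chr17:56304063-56304312, plus strand) holds 30, reached by 5.94% of windows, and the Dnmt1 window (chr9:20952624-20952873, minus strand) holds 26, reached by 9.59%. The Dnmt3l window (chr10:78042037-78042286, plus strand) holds 5, close to the median of 6 over all windows. The windows of these genes that are not printed hold 7 and 2 for Dnmt1, 10 for Uhrf1 and 4 and 3 for Dnmt3l. The shares are over all windows, without choosing the richest window of each gene. The TATA motif TATAAA was searched on both strands, because TFIID binds core promoters, and was found in none of the 4 printed windows. It occurs in 12.4% of all windows and in 1 of the 17 windows of the 10 genes, that of Mbd3. CCAAT, on either strand, was found in the Dnmt1 and Uhrf1 windows and in 7 of the 17, against 33.8% of all windows. GGGCGG, on either strand, was found in the Dnmt1, Uhrf1 and Tet2 windows and in 12 of the 17, against 32.7% of all. These matches describe letters only.

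The knockdown itself was read first. Taf5 stood at -1.09 and -1.07 on the arrays of Taf5-kd line 1 and at -1.06 and -1.16 on those of Taf5-kd line 2, against 0.44 and 0.51 in control-kd line 1 and 0.14 and 0.14 in control-kd line 2. All Taf5-kd arrays lay below all control-kd arrays. The log2 difference was -1.41 ± 0.13 (SE, 2 lines per group; limma, adjusted p = 0.0267). The other probes of Taf5 gave -1.51 and -1.48.

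Across all features, the correlation was 0.946 to 0.970 between both arrays of a line, 0.741 to 0.834 between the lines of 1 group and 0.166 to 0.487 between groups. Median sample signal ran from 123 to 186 intensity units per array over a median background of 35 to 39.5. All 12 ES cell identity genes listed, including Pou5f1 and Sox2, were above background on every array. On single arrays, 90.9 to 98.7% of all mouse probes were above background in the sample channel, so this count does not mark out a cell type. On chromosomes 8 and 11, 22.2% and 18.8% of features were higher in Taf5-kd than in control-kd, with medians of 0.13 and 0.10 against medians of -0.03 to 0.01 on every other chromosome. None of the 9 measured genes lies on chromosome 8 or 11, but several of their partners do.

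**Figure D1:**
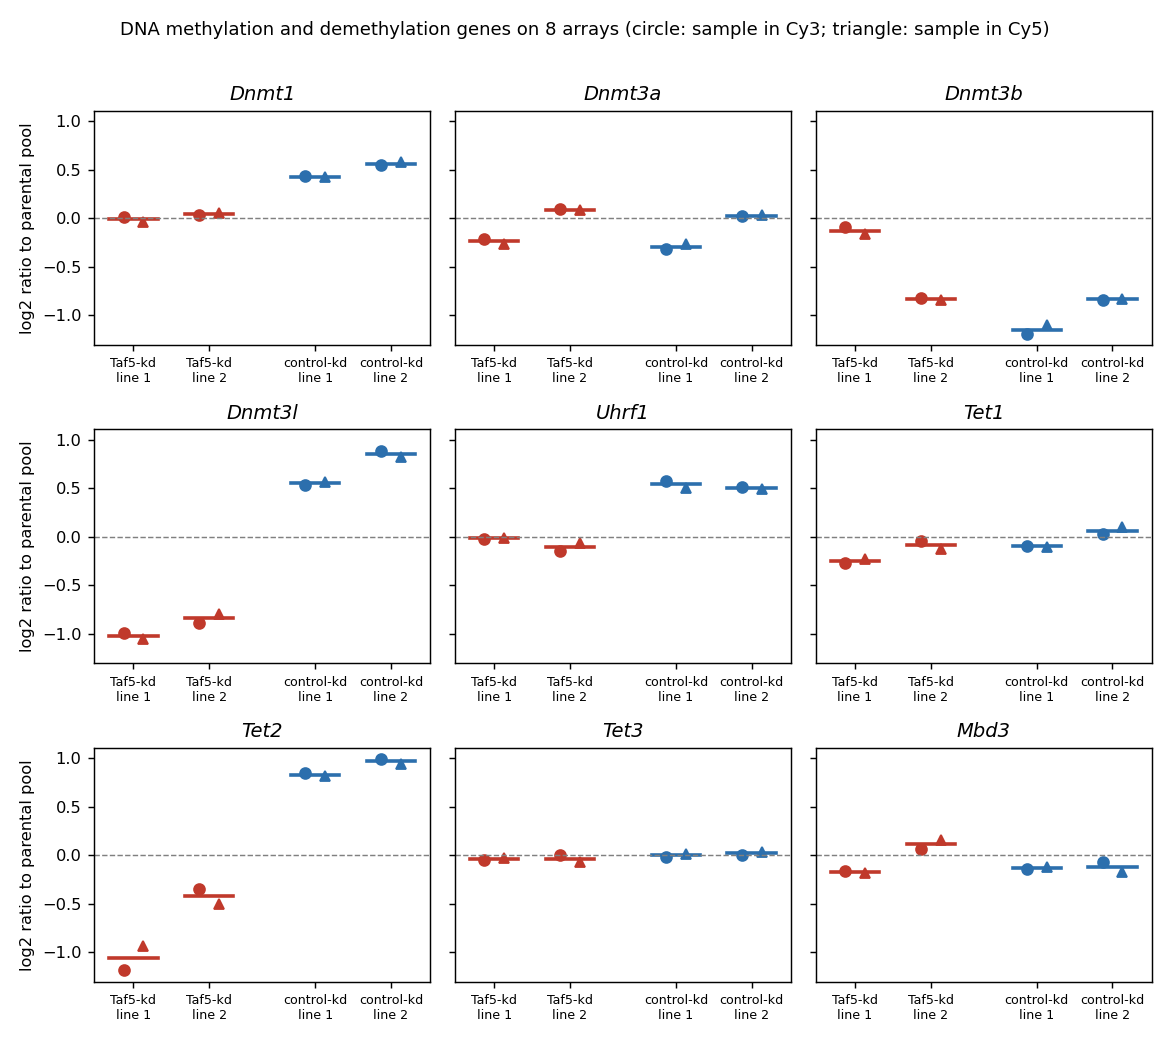
Log2 ratio to the parental pool (vertical axis) of the brightest probe of each of the 9 genes, with the dye effect removed, for 2 Taf5-kd lines (red) and 2 control-kd lines (blue). Points are single arrays and bars are line means; Dnmt1, Dnmt3l, Uhrf1 and Tet2 have every Taf5-kd array below every control-kd array, and in Dnmt3b Taf5-kd line 2 lies at the level of control-kd line 2.

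Maintenance methylation is carried out by the DNMT1 enzyme, which copies the pattern of the parent strand. Dnmt1 (probe MMAB004310) stood at 0.01 and -0.04 on the arrays of Taf5-kd line 1 and at 0.03 and 0.05 on those of Taf5-kd line 2. In the control-kd lines it stood at 0.43 and 0.42 in line 1 and at 0.54 and 0.58 in line 2. The Taf5-kd arrays lay at the level of the parental pool, the control-kd arrays lay above it, and the groups did not overlap. Line means averaged 0.01 ± 0.04 in Taf5-kd and 0.50 ± 0.09 in control-kd (SD, n = 2 lines each). The log2 difference was -0.48 ± 0.06 (SE; limma, Benjamini-Hochberg adjusted p = 0.0384).

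UHRF1 reads hemimethylated CpG and histone H3 and brings DNMT1 to replicated DNA. Its gene was measured by 2 probes. The brighter, MMAB027020, stood at -0.02 and -0.01 in Taf5-kd line 1 and at -0.15 and -0.07 in Taf5-kd line 2, against 0.58 and 0.51 in control-kd line 1 and 0.51 and 0.49 in control-kd line 2. As with Dnmt1, the Taf5-kd arrays lay near the pool and the control-kd arrays above it, without overlap. The means were -0.06 ± 0.07 in Taf5-kd and 0.52 ± 0.03 in control-kd (SD, n = 2 lines each), a log2 difference of -0.58 ± 0.05 (SE; limma, adjusted p = 0.0267). The second probe, MMAB017857, gave -0.59 ± 0.04 (SE; limma, adjusted p = 0.0227 over all probes). Neither probe of Uhrf1 differed past the threshold between the clones of a group.

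DNMT3L has no catalytic activity and stimulates DNMT3A and DNMT3B. Dnmt3l (probe MMAB018073) stood at -0.99 and -1.05 in Taf5-kd line 1 and at -0.88 and -0.79 in Taf5-kd line 2. In control-kd it stood at 0.54 and 0.57 in line 1 and at 0.88 and 0.82 in line 2. All 4 Taf5-kd arrays were below the pool and all 4 control-kd arrays above it. The means were -0.93 ± 0.13 in Taf5-kd and 0.70 ± 0.21 in control-kd (SD, n = 2 lines each), and the log2 difference was -1.63 ± 0.13 (SE; limma, adjusted p = 0.0249). The control-kd clones differed from each other by -0.30 ± 0.05 (line 1 minus line 2, SE; limma on arrays, adjusted p = 0.00685). The smallest distance between an array of Taf5-kd and one of control-kd was larger than that difference.

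DNMT3A and DNMT3B are the catalytic de novo methyltransferases, and neither of their genes passed the test between the groups. Dnmt3b (probe MMAB010971) stood at -0.09 and -0.16 in Taf5-kd line 1 and at -0.82 and -0.85 in Taf5-kd line 2, against -1.19 and -1.10 in control-kd line 1 and -0.84 and -0.83 in control-kd line 2. Taf5-kd line 1 alone lay near the pool, and Taf5-kd line 2 lay at the level of control-kd line 2. The log2 difference between the groups was 0.51 ± 0.28 (SE; 95% confidence interval -0.28 to 1.30; limma, adjusted p = 0.357). Between the Taf5-kd clones, Dnmt3b was higher in line 1 than in line 2 by 0.71 ± 0.05 (SE; limma on arrays, adjusted p = 9.6e-05). Between the control-kd clones it was lower in line 1 than in line 2 by a log2 difference of -0.31 ± 0.05 (adjusted p = 0.00458 in limma).

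Dnmt3a (brightest probe MMAB039045) stood at -0.21 and -0.26 in Taf5-kd line 1 and at 0.09 and 0.09 in Taf5-kd line 2, against -0.32 and -0.27 in control-kd line 1 and 0.02 and 0.03 in control-kd line 2. The clones split by line within each group, while the groups overlapped. The group difference was 0.06 ± 0.17 (log2, SE; 95% confidence interval -0.41 to 0.53; limma, adjusted p = 0.870). The line differences, line 1 minus line 2, were -0.33 in Taf5-kd (limma, adjusted p = 0.00227) and -0.32 in control-kd (limma, adjusted p = 0.00240). The other probes of Dnmt3a gave group differences of 0.25 and -0.19, neither past the threshold.

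TET2 is a dioxygenase that turns 5-methylcytosine into 5-hydroxymethylcytosine and further oxidation products. Tet2 (brightest probe MMAB010915) stood at -1.18 and -0.93 in Taf5-kd line 1 and at -0.34 and -0.50 in Taf5-kd line 2. In control-kd it stood at 0.85 and 0.81 in line 1 and at 0.99 and 0.94 in line 2. The groups did not overlap, and the Taf5-kd clones lay apart by -0.63 ± 0.09 (line 1 minus line 2, SE; limma on arrays, adjusted p = 0.00199). The means were -0.74 ± 0.45 in Taf5-kd and 0.90 ± 0.10 in control-kd (SD, n = 2 lines each), and the log2 difference was -1.64 ± 0.24 (SE; limma, adjusted p = 0.0426).

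The other probes of Tet2 also lay lower in every Taf5-kd array than in every control-kd array, without passing the test. Probe MMAB017244 gave line means of -1.41 and -0.97 in Taf5-kd and -0.01 and 0.54 in control-kd, a log2 difference of -1.45 ± 0.25 (SE; limma, adjusted p = 0.0571 over all probes). Probe MMAB032793 gave -0.43 and 0.06 in Taf5-kd and 0.52 and 0.78 in control-kd, a difference of -0.83 ± 0.20 (SE; limma, adjusted p = 0.101 over all probes). The probes thus differed in size and in where the pool lay between the groups. The mean of all probes gave a log2 difference of -1.31 for Tet2 (limma, adjusted p = 0.0511).

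Tet1, the TET gene best known from ES cells, stood at -0.27 and -0.23 in Taf5-kd line 1 and at -0.05 and -0.13 in Taf5-kd line 2, against -0.09 and -0.11 in control-kd line 1 and 0.03 and 0.09 in control-kd line 2 (probe MMAB018800). The groups overlapped, and the log2 difference was -0.15 ± 0.09 (SE; 95% confidence interval -0.40 to 0.10; limma, adjusted p = 0.396). A dimmer Tet1 probe, MMAB039362, gave -0.14.

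Tet3, known for oxidising the paternal genome in the mouse zygote, lay between -0.07 and 0.03 on all 8 arrays of its brightest probe, MMAB032454. That probe is annotated under the synonym B430006D22Rik. Its log2 difference was -0.05 ± 0.04 (SE, 95% confidence interval -0.15 to 0.06, limma, adjusted p = 0.517). Probe MMAB004473, annotated under the symbol Tet3 itself, gave 0.07, and the other synonym probe gave -0.04. Mbd3 stood at -0.17 and -0.18 in Taf5-kd line 1 and at 0.07 and 0.16 in Taf5-kd line 2, against -0.14 and -0.12 in control-kd line 1 and -0.07 and -0.17 in control-kd line 2. Its Taf5-kd clones lay on both sides of the control-kd arrays, and the difference was 0.10 ± 0.11 (SE; 95% confidence interval -0.21 to 0.40; limma, adjusted p = 0.663).

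**Figure D2:**
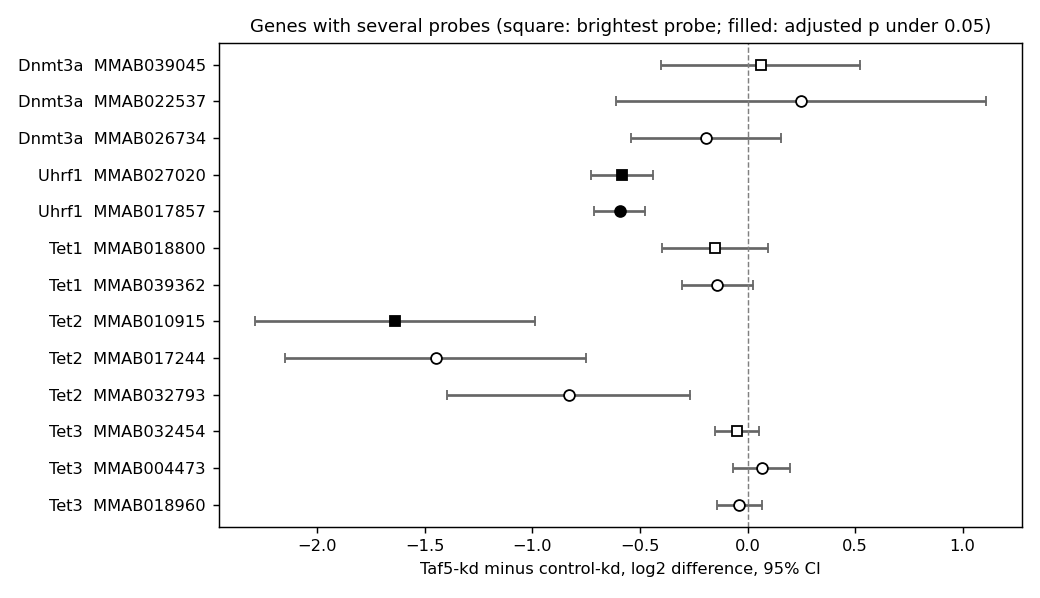
Log2 difference of Taf5-kd minus control-kd (horizontal axis) for each probe of the genes with several probes, with 95% confidence intervals over 2 lines per group; squares are the brightest probe of a gene and filled symbols have an adjusted p under 0.05 over all probes. Both Uhrf1 probes lie near -0.59, while the 3 Tet2 probes spread over -1.64, -1.45 and -0.83.

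Read over single arrays, all 4 falls had the Taf5-kd arrays wholly below the control-kd arrays, as did 18.1% of all features. None of the 9 genes had them wholly above, as did 18.1% of all features too. In the authors' deposited table, the log2 values of Taf5-kd over control-kd were -0.57 for Dnmt1, -1.68 for Dnmt3l, -0.60 for the brighter Uhrf1 probe and -1.52 for the brightest Tet2 probe, each with a p-value of 0. The authors' deposited table gives Dnmt3b 0.49 with a p-value of 1. Its comparisons of single clones gave other p-values for some of these genes. In the authors' deposited table, Taf5-kd line 1 against control-kd line 1 and line 2 gave Tet2 -1.63 and -1.75 with p-values of 0.9936 and 0.9526 on the same probe, while Taf5-kd line 2 gave -1.29 and -1.42 with p-values of 0. On arrays 1 and 2 of Taf5-kd line 1, this probe stood at -1.12 and -0.34 in the authors' processed values. In the processing used here it stood at -1.18 and -0.93, so its value on array 2 depends on the processing. Whether that array sets those p-values was not tested. In the authors' deposited table, Dnmt1 of Taf5-kd line 1 against control-kd line 1 gave -0.56 with a p-value of 0.0722, and Dnmt3b of that pair gave 0.99 with a p-value of 0.0108. Whether those p-values are adjusted is not given in the sources used here.

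Setting each group against the parental pool shows on which side of the pool the 4 genes moved. These comparisons use the same lines as the one above, and the pool is 1 RNA with no spread of its own in the test. In Taf5-kd, Dnmt3l was lower than in the pool, by -0.93 ± 0.09 (log2, SE; limma, adjusted p = 0.0147), and no other of the 9 genes passed, while 18.4% of all features passed, 10.7% lower and 7.74% higher. Tet2 stood at -0.74 ± 0.17 (SE; limma, adjusted p = 0.0595), Uhrf1 at -0.06 and Dnmt1 at 0.01. Single probes differed from the brightest: Tet2 probe MMAB017244 stood at -1.19 ± 0.18 against the pool in Taf5-kd (SE; limma, adjusted p = 0.0250 over all probes), while Tet2 probe MMAB032793 stood at -0.18 (limma, adjusted p = 0.450). Tet3 probe MMAB004473 was higher than the pool in Taf5-kd, by 0.17 ± 0.03 (SE; limma, adjusted p = 0.0430 over all probes), where the other Tet3 probes stood at -0.04 each. The Dnmt3l call against the pool was lost when either Taf5-kd line was left out (adjusted p 0.0726 and 0.0930). With arrays centred on their median, 0 of the 9 genes passed in Taf5-kd and 3 in control-kd.

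In control-kd, 4 genes were higher than in the pool and 1 lower, while 21.4% of all features passed, 8.38% higher and 13% lower. Tet2 was higher by 0.90 ± 0.17 (log2, SE; limma, adjusted p = 0.0370), Dnmt3l by 0.70 ± 0.09 (adjusted p = 0.0195), Uhrf1 by 0.52 ± 0.04 (adjusted p = 0.00913) and Dnmt1 by 0.50 ± 0.04 (adjusted p = 0.0118). Dnmt3b was lower, at -0.99 ± 0.20 (SE; limma, adjusted p = 0.0428), against -0.48 ± 0.20 in Taf5-kd (adjusted p = 0.189). Without control-kd line 2 none of the 5 passed (adjusted p 0.0518 to 0.183), and without control-kd line 1 Dnmt3b, Uhrf1 and Tet2 did not pass (adjusted p 0.0533 to 0.207). Dnmt3b was also lost without array 1 of control-kd line 1 (adjusted p = 0.0512), and Tet2 without array 2 of Taf5-kd line 1 (adjusted p = 0.0565) and over the mean of its probes (adjusted p = 0.0710). For Dnmt1 and Uhrf1 the Taf5-kd means lay at the pool and the control-kd means above it, whereas for Dnmt3l the groups lay on opposite sides of it. For Tet2 they did so on the brightest probe. On probe MMAB017244 control-kd stood at 0.26 (limma, adjusted p = 0.396), with its line 1 at -0.01. On probe MMAB032793 control-kd stood at 0.65 (limma, adjusted p = 0.0527), and Taf5-kd line 2 was at 0.06.

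The clones of a group were also set against each other, line 1 over line 2, with the spread taken between cultures of 1 clone. Between the Taf5-kd clones, 1 of the 9 genes was higher in line 1 (Dnmt3b) and 3 were lower (Dnmt3a, Tet2 and Mbd3), where 13.6% of all features passed, 9.49% higher and 4.06% lower. Between the control-kd clones, 0 were higher in line 1 and 3 were lower (Dnmt3a, Dnmt3b and Dnmt3l), where 13.4% of all features passed, 6.66% higher and 6.76% lower. Dnmt1, Uhrf1, Tet1 and Tet3 passed in neither pair of clones. Of the genes that fell between the groups, Dnmt3l and Tet2 thus also differed between clones of 1 group. With arrays centred on their median, 0 of the 9 genes passed in either pair. The clone difference of Tet2 in Taf5-kd was also lost without background subtraction (adjusted p = 0.479) and in the authors' processed values (adjusted p = 0.409). That of Mbd3 was lost without array 1 or array 2 of Taf5-kd line 1 or array 2 of Taf5-kd line 2 (adjusted p 0.0782 to 0.102), and that of Dnmt3l in control-kd without array 1 of control-kd line 2 (adjusted p = 0.0910).

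**Figure D3:**
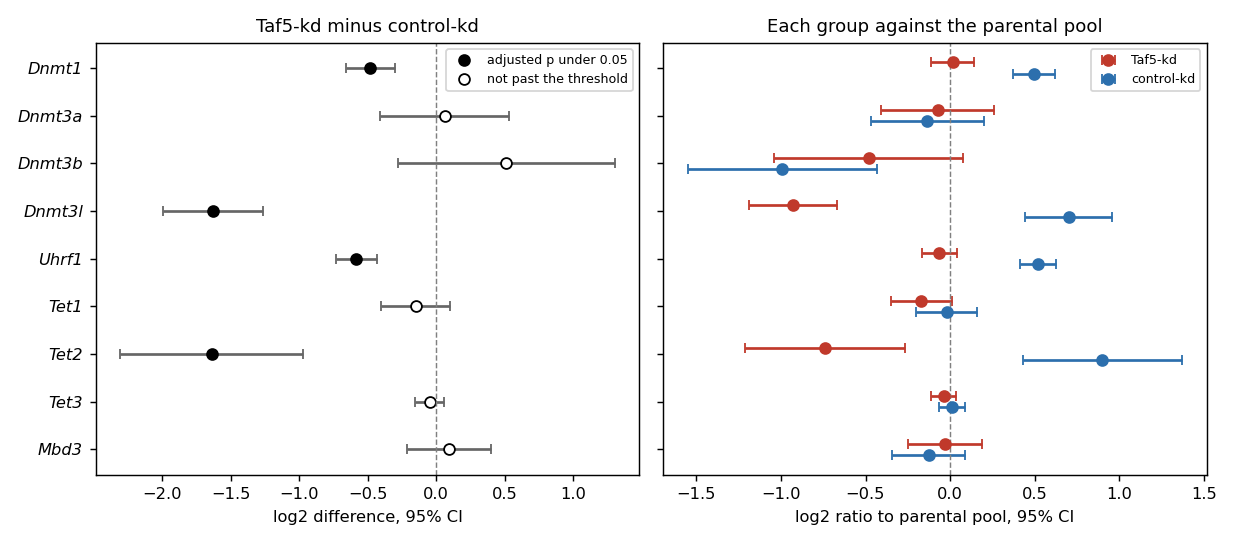
Left, log2 difference of Taf5-kd minus control-kd for the 9 genes; right, log2 ratio of each group to the parental pool, Taf5-kd in red above control-kd in blue; bars are 95% confidence intervals from limma over 2 lines per group. Dnmt1 and Uhrf1 of Taf5-kd sit at the pool with control-kd above it, and Dnmt3l and the brightest probe of Tet2 have the groups on opposite sides of 0.

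Partners of these enzymes were described by lists, whose counts are set beside the 4.5% higher and 3.25% lower of all features. Of 23 maintenance and recruitment partners, 2 rose and 4 fell, with a median log2 difference of -0.18. The genes that fell were Nsd1, a histone H3 lysine 36 methyltransferase, by -1.07 ± 0.11 (SE; limma, adjusted p = 0.0287), Usp7, a deubiquitinase that binds DNMT1 and UHRF1, by -0.52 ± 0.06 (adjusted p = 0.0323 in limma), Hells, a remodeller needed for methylation of repeats, by -0.44 and its partner Cdca7 by -0.44. Those that rose were Suv39h1, a histone H3 lysine 9 methyltransferase, by 0.81 ± 0.13, and the heterochromatin protein gene Cbx1 by 0.58 ± 0.05. Cbx1 lies on chromosome 11.

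Dppa3, which codes for a factor known to bind UHRF1 and keep it off chromatin, had the largest difference of that list without passing the test. It stood at 0.09 and -0.70 in the Taf5-kd lines, against -2.77 and -4.10 in the control-kd lines, a log2 difference of 3.13 ± 0.56 (SE; limma, adjusted p = 0.0585). Uhrf2, the paralogue of Uhrf1, stood at 0.77 and 0.49 in Taf5-kd and at 0.02 and 0.04 in control-kd, with an adjusted p of 0.0585 in limma. Pcna, the replication clamp that binds DNMT1, gave -0.61 (limma, adjusted p = 0.139). These 3 were named after their values were seen.

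Among 9 measured methyl-CpG readers only Klf4 passed, with a fall of -1.21 ± 0.10 (SE; limma, adjusted p = 0.0256), and Klf4 is known first as a naive pluripotency factor. The median of the list was -0.03. Of 15 TET partners and cofactors none passed in either direction and the median was -0.24. Slc2a1, the gene of a glucose transporter that also carries oxidised vitamin C, gave 0.71 ± 0.13 (SE, limma, adjusted p = 0.0596). Idh1, a source of 2-oxoglutarate, gave -0.27 ± 0.07 (limma, adjusted p = 0.108). Against the parental pool, Slc2a1 stood at -0.70 in Taf5-kd and -1.40 in control-kd, and Idh1 at 0.51 and 0.79.

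Of 22 base excision partners of TDG, 2 rose and 1 fell, with a median of -0.06. Polb, the repair polymerase gene, rose by 0.83 ± 0.09 (SE; limma, adjusted p = 0.0313), the glycosylase gene Neil3 rose by 0.62 ± 0.07, and Parp1, which senses strand breaks, fell by a log2 difference of -0.40 ± 0.04. Of 15 NuRD subunits other than Mbd3, 3 rose and 1 fell, with a median of -0.08. Mta3 fell, at -0.61 ± 0.08, while Gatad2a rose by 0.53 ± 0.06, the remodeller gene Chd3 by 0.40 ± 0.06 and Cdk2ap1 by 0.38 ± 0.06. Polb, Neil3 and Gatad2a lie on chromosome 8 and Chd3 on chromosome 11.

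The methyl donor cycle supplies S-adenosylmethionine and clears its product S-adenosylhomocysteine. Of its 17 measured genes 3 rose and 1 fell, with a median of 0.07. Adk, the adenosine kinase gene, rose by 0.79 ± 0.06 (SE; limma, adjusted p = 0.0249), Ahcy, which codes for the hydrolase of S-adenosylhomocysteine, by 0.57 ± 0.05, and its relative Ahcyl1 by 0.40 ± 0.06. Shmt2, the mitochondrial serine hydroxymethyltransferase gene, fell, at -0.55 ± 0.05 (limma, adjusted p = 0.0280). Over these 6 lists and the germline list below, 123 distinct genes were measured, of which 11 rose and 9 fell. Of the 15 on chromosomes 8 and 11, 5 rose and 0 fell. Whether the shift of those chromosomes has a part in these rises was not tested.

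Germline genes known to carry promoter methylation in somatic cells were listed as a readout of the pathway. Of 25 measured, 1 rose and 1 fell, with a median of -0.03. Dazl, an RNA-binding protein gene of germ cells that is also expressed in ES cells, stood at -0.61 and -0.34 in the Taf5-kd lines and at 0.90 and 0.81 in the control-kd lines, a log2 difference of -1.33 ± 0.11 (SE; limma, adjusted p = 0.0256). Tdrd1, of the piRNA pathway, rose by 0.54 ± 0.08 (adjusted p = 0.0469 in limma). DNA methylation itself was not measured on these arrays.

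**Figure D4:**
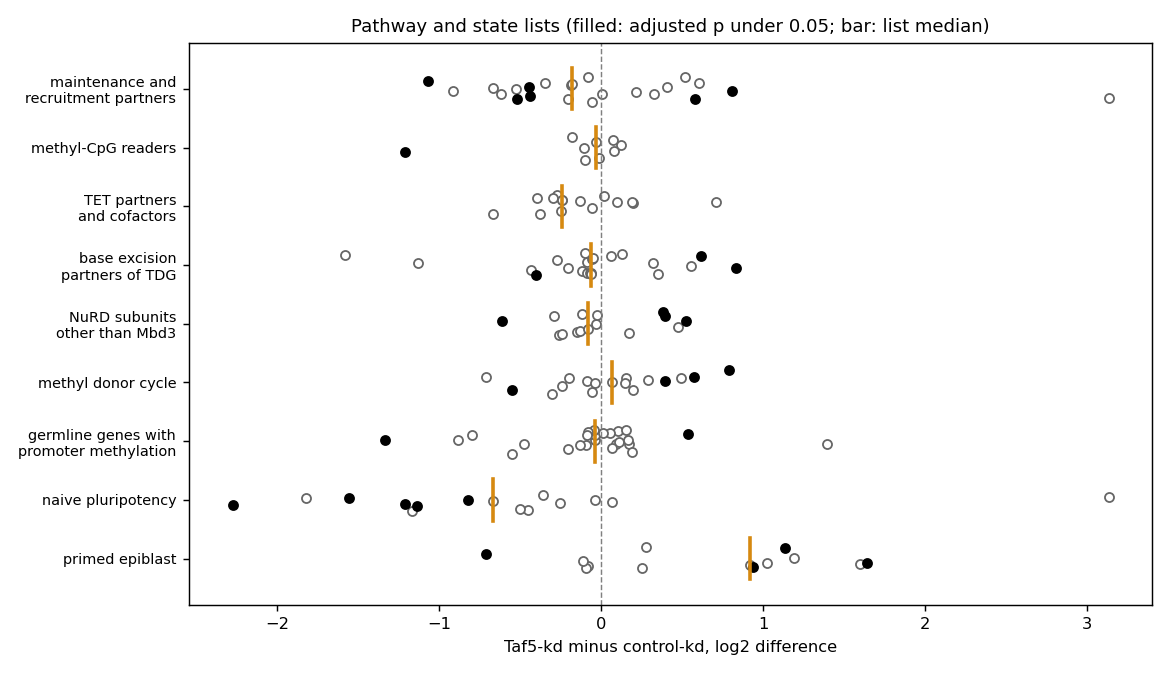
Log2 difference of Taf5-kd minus control-kd (horizontal axis) for each measured gene of 7 pathway lists and the naive and primed state lists; filled points have an adjusted p under 0.05 and orange bars are list medians. The pathway medians lie between -0.24 and 0.07, the naive list at -0.67 and the primed list at 0.92.

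Markers of cell state moved alongside. Of 15 naive pluripotency genes 5 fell and 0 rose, with a median of -0.67, and among them Tbx3 gave -2.27 ± 0.25, Esrrb -1.56 ± 0.16, Klf4 -1.21 and Klf5 -1.13 ± 0.11 (log2, SE). Dppa3, also on the naive list, lay the other way without passing the test, as given above. Its median raw signal was 4137 in Taf5-kd and 358 in control-kd. Of 13 primed epiblast genes 3 rose and 1 fell, with a median of 0.92, and Cdh2 rose by 1.64 ± 0.11, Sall2 by 1.13 ± 0.10 and Zic2 by 0.94 ± 0.07, while Foxd3 gave -0.71 ± 0.04. Of the 12 ES cell identity genes, Esrrb and Fgf4 fell, with Fgf4 at -0.82 ± 0.05. Against the parental pool, the naive median was -0.14 in Taf5-kd, with 1 gene lower and 0 higher. In control-kd the naive median was 0.64, with 7 genes higher and 1 lower. The primed median was 0.16 in Taf5-kd (1 higher, 1 lower) and -0.37 in control-kd (2 higher, 4 lower). Of all features, 18.4% passed against the pool in Taf5-kd and 21.4% in control-kd. Esrrb, Klf4, Fgf4, Nanog, Dppa3, Zfp42, Sall4, Mbd2 and Mbd4 stand on more than 1 of the lists used here. Zfp42 stands on the naive, ES cell identity and germline lists.

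Among markers of other cell types, Cdx2 and Gata3 of the 9 measured trophectoderm genes rose, by 2.61 ± 0.31 and 0.32 ± 0.04, and none fell. Against the parental pool, Cdx2 stood at 1.82 in Taf5-kd and -0.79 in control-kd, and Gata3 at -0.09 and -0.41. The trophectoderm median against the pool was -0.09 in Taf5-kd (1 higher, 0 lower) and -0.47 in control-kd (0 higher, 5 lower). Of all features, 18.4% and 21.4% passed in these comparisons. All 9 were above background on every array, where 90.9 to 98.7% of all mouse probes were above it on single arrays. The summed signal of the trophectoderm list ran from 3563 to 13492 intensity units over the Taf5-kd arrays, against 1914 to 2965 over the control-kd arrays, without overlap. Such sums are of raw spot intensity, without background subtraction or normalization, so they also follow array brightness and the brightest genes. In Taf5-kd the brightest of the list were Krt8 and Krt18, which did not pass. Their median signals were 2938 and 2459 in Taf5-kd and 581 and 275 in control-kd. The sums overlapped for the naive list (51148 to 137290 in Taf5-kd, 73130 to 144130 in control-kd), for the primed list (10367 to 19901 in Taf5-kd, 6294 to 14661 in control-kd) and for the ES cell identity list (70096 to 200260 in Taf5-kd, 103470 to 204470 in control-kd). Of 12 primitive endoderm genes Hnf4a fell between the groups, at -0.27 ± 0.04. Between the control-kd clones, 10 of these 12 were lower in line 1 and 0 higher, with a median of -1.02. Between the Taf5-kd clones, 5 were lower in line 1 and 1 higher, with a median of -0.19. Of all features, 13.4% passed between the control-kd clones and 13.6% between the Taf5-kd clones. Of 10 fibroblast and 4 measured 2-cell-like genes none passed between the groups. Whether these markers have a part in the falls of Dnmt1, Dnmt3l, Uhrf1 and Tet2 was not tested.

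Genes with the profile nearest to each of the 4 that fell were found over the 8 arrays by the root mean square difference of log2 ratios. For Dnmt1 they were Sgk2, Sdhaf1 and Mterf1b, at 0.039, 0.041 and 0.047. For Uhrf1 they were Ivns1abp, Fanci and Mterf1b, at 0.037, 0.073 and 0.075. For Dnmt3l they were Chrna9, Gsta4 and Sult6b1, at 0.13, 0.14 and 0.15. For Tet2 the nearest were Accsl, Aplp1 and Dhx16, at 0.16, 0.18 and 0.20. A gene with little change has many near profiles, so these distances are not comparable between genes.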

How the data were processed

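RNA was measured on 8 dual-colour arrays. Per the file headers, the deposited scanner tables hold mean spot intensity, background median and background SD for both channels of 45220 spots. A matrix processed by the authors gives log2 ratios to the pool (array medians -0.0058 to 0.0080). Its normalization was not stated in the labels or headers read. The authors' deposited comparison table gives, per the file headers, log2 differences and p-values, and 77.9 to 82.8% of its p-values are 1. The direction of the ratios follows from the dyes in the labels. Of the spots, 41174 were mouse probes and 4046 controls.

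Intensities were corrected by normexp (offset 50), normalized by loess within each array over mouse probes and turned to sample over pool, in R 4.3.3 with statmod 1.5.0 and limma 3.58.1. The filter kept 40860 probes that exceeded background by 2 background SDs on 4 or more of the 8 arrays, in either colour, and set aside 314, and a gene was represented by its brightest probe. The platform gave 1 symbol for 34186 mouse probes and none for 6988. Against RefSeq GRCm38.p6, 30365 symbols were current, 3726 were updated through synonyms, 75 were ambiguous and 20 unmatched.

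The 2 arrays of a line were averaged, which cancels the dye, and limma's moderated test (lmFit, eBayes) was run on 4 line means, two-sided and Benjamini-Hochberg adjusted over 25150 features, since the clone is the independent unit. Clones were compared on arrays with a dye term, where the spread is between cultures of 1 clone. Deviations of arrays of the same number correlated at 0.700 to 0.829 between lines, which pairs arrays by dye, and those of clones of the same number at 0.089, so clone numbers do not pair the lines. The members and gene lists were chosen with earlier results of these data known. Genes named from a list are up to 4 with the largest difference among those passing, and, where no gene passed, the 2 of smallest p. For each of the genes that fell, the 3 nearest named profiles are given. Hells, Cdca7, Pou5f1, Sox2, Krt8, Krt18, the genes named for standing on several lists and the genes marked in the text were added. Alternatives covered the background correction, normalization, dim-probe filter, probe summary, authors' values, replicate blocks and each array and line left out. Plots were drawn in Python 3.11.15 with pandas 2.3.3 and matplotlib 3.10.9.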

Additional observations from a re-analysis of the deposited data

Results flagged for a closer look

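The clones of a group differed from each other in 7 results, each tested on arrays with a dye term (limma, adjusted over 25150 features). Line 1 minus line 2 of Taf5-kd gave a log2 difference of -0.33 for Dnmt3a, 0.71 for Dnmt3b, -0.63 for Tet2 and -0.28 for Mbd3, so 4 of the 9 genes passed, where 13.6% of all features did. Line 1 minus line 2 of control-kd gave -0.32 for Dnmt3a, -0.31 for Dnmt3b and -0.30 for Dnmt3l, so 3 of the 9 passed, where 13.4% of all features did. Each clone was grown in duplicate and measured on 2 arrays. In 18 sets of 4 arrays, 1 for each gene and group, no array was flagged as far from the other 3. The rule used the gap to the next array as a share of the range. As each set holds 2 arrays of each clone, a difference between clones makes such a flag less likely.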

How the results depend on the processing

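The falls of Dnmt1, Dnmt3l, Uhrf1 and Tet2 kept their direction under all 20 alternatives, with log2 differences of -0.55 to -0.41, -1.78 to -1.48, -0.71 to -0.54 and -1.96 to -1.31. They passed in 14, 15, 15 and 12 of the 20. All 4 lost their call under median centring (adjusted p 0.0609 to 0.409) and with any 1 line left out (adjusted p 0.0504 to 0.144), where the lone line of a group is assumed to vary like the other group. With any 1 line left out, 0 of the 9 genes passed, as did 0 features, or 110 without Taf5-kd line 2. Tet2 was also lost without control-kd array 1 of line 1 (adjusted p = 0.0530), without Taf5-kd array 2 of line 1 (adjusted p = 0.0531) and over the mean of its probes (adjusted p = 0.0511).

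Under median centring, the counts of features that passed were 106 for Taf5-kd minus control-kd, 148 for Taf5-kd minus pool, 1171 for control-kd minus pool, 94 between the Taf5-kd clones and 322 between the control-kd clones, with 0, 0, 3, 0 and 0 of the 9 genes. The array-level fit, with the array number as a replicate block and the line as a random block, called 5673, 7853 and 8243 features for the 3 group comparisons and 4 genes for Taf5-kd minus pool. The clone number as a replicate block left 1188 features for Taf5-kd minus control-kd, and Dnmt1 then had an adjusted p of 0.0503. Without background subtraction, and in the authors' values, 2 genes passed for Taf5-kd minus pool. Over the omissions of single arrays or lines, counts ran from 0 to 2520 features and 0 to 4 genes for Taf5-kd minus control-kd, 0 to 4640 and 0 to 2 for Taf5-kd minus pool, 1082 to 5611 and 0 to 5 for control-kd minus pool, 1291 to 3997 and 3 to 4 between the Taf5-kd clones, and 1443 to 3263 and 2 to 3 between the control-kd clones.

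Signs turned only in values that did not pass. Over the omissions of single arrays or lines, Taf5-kd minus control-kd ran from -0.10 to 0.22 for Dnmt3a and -0.045 to 0.24 for Mbd3, and Taf5-kd minus pool from -0.24 to 0.089 for Dnmt3a, -0.17 to 0.11 for Mbd3 and -0.011 to 0.040 for Dnmt1. Control-kd minus pool ran from -0.29 to 0.024 for Dnmt3a and -0.10 to 0.061 for Tet1. Between the Taf5-kd clones Tet3 ran from -0.054 to 0.045, and between the control-kd clones Uhrf1 ran from -0.0058 to 0.092, Tet3 from -0.037 to 0.00064 and Mbd3 from -0.075 to 0.053. Under median centring, signs turned for Dnmt3a, Uhrf1 and Mbd3 of Taf5-kd minus pool (0.031, 0.10 and 0.032), for Dnmt3a and Tet1 of control-kd minus pool (0.027 and 0.074), for Tet3 between the Taf5-kd clones (0.018) and for Uhrf1 between the control-kd clones (-0.45). Tet3 also turned between the Taf5-kd clones without background subtraction (0.0023) and in the authors' values (0.013), between the control-kd clones in the authors' values (0.0034), and for Taf5-kd minus pool over all probes (0.030). The causes were not tested. Signal over background limits the dimmer probes, and the number of clones limits every group comparison.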
